A study of Homo sapiens with 9 samples.

Results

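The transcriptomes of cells treated with MS172 and of cells treated with PK9328 were compared directly with each other. The comparison used 6 of the 9 libraries of the series, the 3 titled MS172 and the 3 titled PK9328, and covered 13914 expressed genes, of which 12135 are protein-coding. The other 3 libraries received the vehicle DMSO. They entered the same fit, and their values are given beside those of the compounds. Every library is labelled BxPC3, a pancreatic adenocarcinoma line, with the genotype p53Y220C/-, so that all 3 groups carry the Y220C form of p53 and no second allele. Cells grew in RPMI with fetal bovine serum, and RNA was selected for poly(A). The treatment protocol gives 5 µM and 6 h, but it names PK9328 and MS78. The titles, the treatment labels and the design text name MS172, so the dose and the time of MS172 rest on a protocol that carries another compound's name. PK9328 is known as a small molecule that binds the Y220C mutant of p53, and MS172 is known here by its code only. The 2 compounds form 1 pair, so 1 pair was compared, at 1 dose and 1 time. The labels do not say that the 3 libraries of a group came from separate cultures, so the p-values measure the spread between these libraries, which may be technical.

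Some labels were checked against the data. Keratin genes of the pancreatic duct were present, with KRT18 between 710 and 984 counts per 1000000 reads (CPM) and KRT19 between 290 and 367 CPM. EPCAM, CDH1 and KRT7 did not exceed 0.0745, 0.0417 and 0.103 CPM in any library, and 10 of the 18 ductal and epithelial markers lay under 1 CPM everywhere. The mesenchymal gene VIM reached 10400 CPM, and SMAD4, which BxPC3 is known to have lost, ranged from 51.5 to 64.1 CPM. These values go against the label BxPC3, which is used below only as the submitters' name for the cells. The 10 acinar and endocrine and the 7 endothelial markers were all under 1 CPM. Of 9 leukocyte markers 7 were too, with CD3E, MS4A1 and NKG7 at 0; CD68, also a lysosomal gene, and LYZ exceeded it in at least 1 library, and the list's sum was 22.6 to 25.2 CPM with MS172 and 19 to 21.2 with PK9328. The summed level of the ductal markers was 2631 to 2796 CPM with MS172, 2168 to 2337 with DMSO and 2020 to 2101 with PK9328, and that of the 16 mesenchymal markers was 12420 to 12940, 11800 to 11980 and 10000 to 10260 CPM in the same order. The tight junction gene CLDN4, singled out after its values were seen, stood at 218, 215 and 196 CPM with MS172, 97.4, 102 and 105 CPM with PK9328 and 120 to 125 CPM with DMSO (log2 fold change 1.04 ± 0.041, SE, adjusted p = 1.1e-18). Of 8 tested ductal markers 5 were higher with MS172 and 1, ELF3, with PK9328 (log2 -0.67), and of 8 tested mesenchymal markers 2, VIM and COL1A2, were higher with MS172 and 1, ZEB1, with PK9328 (log2 -0.23). These markers were named after their values were seen. The sums rest mostly on a few abundant genes, among them VIM, COL1A2 and KRT18. The part of these markers in the results below was not tested. In bulk RNA, fewer cells of a kind and less RNA per cell cannot be told apart.

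Libraries held 24077353 to 28031886 estimated reads. In a principal component analysis of all 9 libraries, the first component took 35.6% of the variance. The MS172 libraries lay between -31.24 and -28.23, the DMSO libraries between 6.28 and 9.61, and the PK9328 libraries between 19.62 and 22.88. The libraries also differed in a physical property. The fragment length estimated from the deposited effective lengths was 274, 293 and 292 bases with MS172, 261, 263 and 250 bases with PK9328, and 281 to 289 bases with DMSO. The estimate was thus lower in every PK9328 library than in every other library. For MS172 against PK9328 an exact permutation test gave a 2-sided p = 0.1, the smallest p that 3 against 3 libraries allow. The share of reads on mitochondrial genes was 4.87 to 5.39% with MS172, 3.33 to 4.44% with PK9328 and 3.93 to 5.04% with DMSO.

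**Figure D1:**
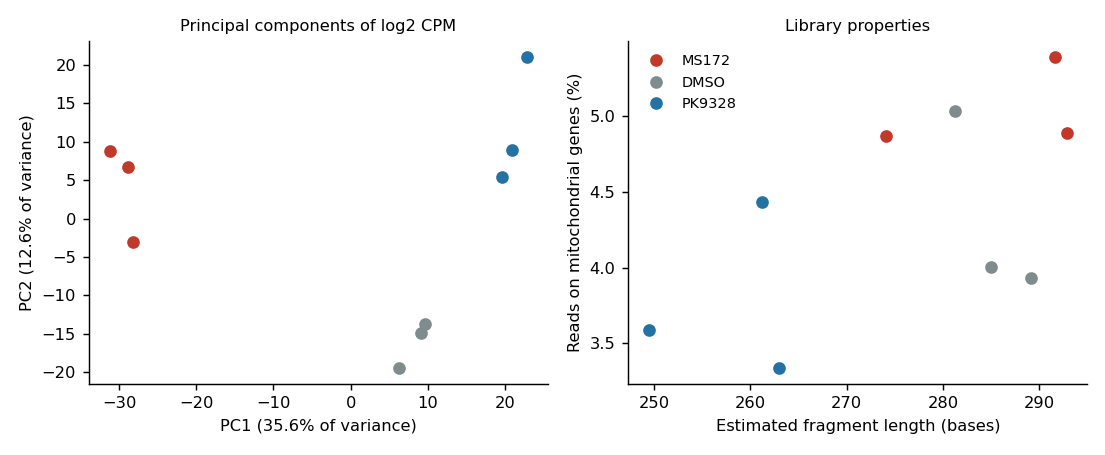
Left, first and second principal components of log2 CPM for the 9 libraries, one point each, coloured by treatment. Right, estimated fragment length in bases against the percentage of reads on mitochondrial genes. The 3 PK9328 libraries have the lowest estimates, between 250 and 263 bases.

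Several of the gene lists read below are known stress programmes. Zinc and other metals act through the factor MTF1 on metallothionein genes, whose products bind metal ions. Misfolded protein in the cytosol releases HSF1, which acts on heat shock genes, and electrophiles or oxidants release NRF2 from KEAP1. The integrated stress response slows translation through the kinases of eIF2 alpha and raises the factors ATF4 and CHOP (gene DDIT3), while the unfolded protein response of the endoplasmic reticulum acts through ATF6, IRE1 and PERK. Low sterol in the endoplasmic reticulum membrane frees SREBP2, which acts on cholesterol genes. The factor p53 acts on genes of arrest and death such as CDKN1A and BBC3 and on its own ligase MDM2, and the Y220C change is known to make the p53 protein unstable.

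Promoter sequences of 5 genes from these programmes are shown so that the elements named for them can be seen. They were chosen after the motif search from list members that hold a match, 1 per element, and are the 250 bases before the transcription start, 5′ to 3′ on the gene's strand, from RefSeq (GRCh38.p14). Capitals mark matches on either strand. In MT1X (chr16:56682220-56682469, plus strand) they mark the metal response motif, written TGCACNC or TGCGCNC. In HSPA8 (chr11:123062137-123062386, minus strand) they mark the heat shock motif, the triplets GAA, TTC and GAA with 2 free bases between neighbours. In CXCL8 (chr4:73740319-73740568, plus strand) they mark the NF-kB motif GGNNTTTCC. In CHAC1 (chr15:40953221-40953470, plus strand) they mark the ATF4 composite motif TGATGNAA, and in HSPA5 (chr9:125241344-125241593, minus strand) the endoplasmic reticulum stress motif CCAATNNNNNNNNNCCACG.
MT1X: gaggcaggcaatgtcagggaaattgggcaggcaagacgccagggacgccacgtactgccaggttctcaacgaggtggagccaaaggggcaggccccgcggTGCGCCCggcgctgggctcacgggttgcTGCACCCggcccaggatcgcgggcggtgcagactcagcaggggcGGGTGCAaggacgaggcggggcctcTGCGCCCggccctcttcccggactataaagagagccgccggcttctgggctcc
HSPA8: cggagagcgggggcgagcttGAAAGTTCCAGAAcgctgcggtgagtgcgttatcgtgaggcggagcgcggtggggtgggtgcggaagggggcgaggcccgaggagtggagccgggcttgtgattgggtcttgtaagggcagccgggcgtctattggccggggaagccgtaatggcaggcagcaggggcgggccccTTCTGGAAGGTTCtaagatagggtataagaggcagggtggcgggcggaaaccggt
CXCL8: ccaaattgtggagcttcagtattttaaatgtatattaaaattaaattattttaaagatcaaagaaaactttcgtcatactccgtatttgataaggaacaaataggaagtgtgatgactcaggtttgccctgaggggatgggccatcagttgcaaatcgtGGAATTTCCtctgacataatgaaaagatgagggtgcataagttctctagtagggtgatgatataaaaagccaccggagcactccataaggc
CHAC1: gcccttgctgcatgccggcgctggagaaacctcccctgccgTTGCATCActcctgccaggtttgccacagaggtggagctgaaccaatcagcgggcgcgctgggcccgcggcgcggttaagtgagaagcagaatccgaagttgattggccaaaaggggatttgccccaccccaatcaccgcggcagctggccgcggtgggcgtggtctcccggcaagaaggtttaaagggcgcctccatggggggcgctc
HSPA5: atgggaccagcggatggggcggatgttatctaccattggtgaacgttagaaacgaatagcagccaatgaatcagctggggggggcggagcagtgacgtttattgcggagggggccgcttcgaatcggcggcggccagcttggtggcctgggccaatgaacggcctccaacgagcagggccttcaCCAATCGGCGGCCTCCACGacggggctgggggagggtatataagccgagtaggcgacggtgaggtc
MT1X held 4 matches, the nearest ending 46 bases before the start. This RefSeq start differs from the gene start given for MT1X below, which lies within the sequence shown. The matches nearest to the start ended 42 bases before it in HSPA8, 82 in CXCL8, 201 in CHAC1 and 47 in HSPA5.

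Across all tested genes, 6641 differed between MS172 and PK9328 at an adjusted p under 0.05 (47.7% of genes; edgeR quasi-likelihood test with Benjamini-Hochberg adjustment, used for every adjusted p below). Of these, 3240 were higher with MS172 (23.3%) and 3401 were higher with PK9328 (24.4%). Most differences were small, and the median absolute log2 fold change of the called genes was 0.296. Over 2-fold, the balance was uneven, with 63 genes higher with MS172 (0.453%) and 364 higher with PK9328 (2.62%). These genes were mostly weakly expressed, with a median level of 1.64 CPM toward MS172 and 1.28 CPM toward PK9328, against 20.9 CPM over all genes. The 2 groups of libraries did not overlap in 7711 genes (55.4%). Counts over lists are read against these shares, and the median of a list is given beside that of genes of the same expression level.

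The call count changed when fragment length entered the fit. With the estimated fragment length as a covariate, 2474 genes were called, 1368 higher with MS172 and 1106 higher with PK9328. Of the 6641 genes, 2358 were still called, and 0 of these changed sign. Fragment length and compound go together in these libraries, so the covariate takes up part of any difference between the compounds, and the 2 cannot be told apart. With it, the members called higher with MS172 went from 20 to 13 for heat shock, from 23 to 6 for G1/S and replication, from 22 to 8 for G2/M and mitosis, from 27 to 11 for the proteasome and from 8 to 0 for the mitochondrially encoded mRNAs. The medians of these lists stayed near their values without it, at 0.263, 0.163, 0.162, 0.190 and 0.556 in the same order. Those called higher with PK9328 went from 130 to 46 for ZNF genes on chromosome 19, from 137 to 63 for other ZNF genes, from 16 to 9 for hosts of small nucleolar RNAs, and from 14 to 12 for the integrated stress response, with medians of -0.500, -0.351, -0.062 and -0.723. For the metal list the counts were 5 and 1, from 5 and 2.

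**Figure D2:**
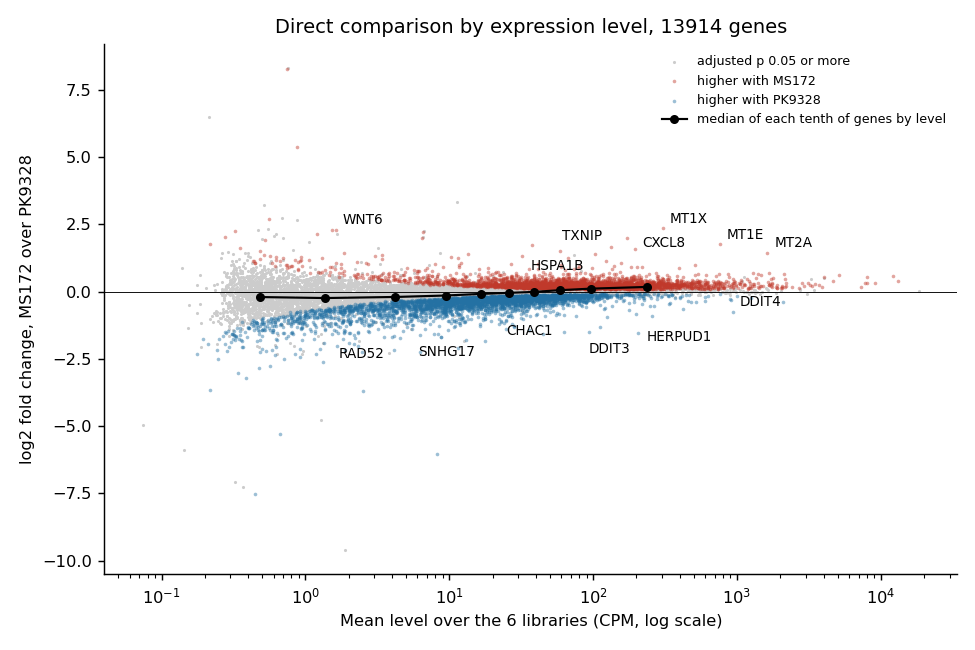
Each point is 1 of 13914 genes, with its mean level over the 6 libraries (CPM, log axis) against the log2 fold change of MS172 over PK9328; red and blue mark genes higher with MS172 and PK9328 at an adjusted p under 0.05. The black line joins the medians of 10 equal groups of genes by level, which run from -0.20 in the lowest to 0.17 in the highest group.

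Of 5 tested metallothionein genes, 4 were higher with MS172 (80%, against 48.3% of genes of the same level). MT1X had the largest fold change toward MS172 of the coding genes chosen by size. MT1X (ENSG00000187193, chr16:56682424-56684196, plus strand) stood at 526, 535 and 466 CPM with MS172, at 102, 93.8 and 102 CPM with PK9328 and at 110, 96.3 and 110 CPM with DMSO. The 3 MS172 libraries lay far above the other 6, and the PK9328 libraries lay within or just under the range of DMSO. MT1X was 5.14-fold higher with MS172 than with PK9328 (log2 2.36 ± 0.066, SE, adjusted p = 1.185e-10). MT1E was 3.38-fold, MT1M 3.35-fold and MT2A 2.71-fold higher, with MT2A at 2484, 2350 and 2236 CPM against 870, 812 and 930 CPM. SLC30A1, the zinc exporter of the plasma membrane and a known MTF1 target, was 1.51-fold higher, at 93.8, 88.5 and 91.2 against 59.4, 62.1 and 59 CPM. In the opposite direction, the zinc importer SLC39A10 stood at 97.1, 95.7 and 95.4 CPM with MS172, 144, 154 and 144 CPM with PK9328 and 158 to 174 CPM with DMSO, and was 1.53-fold higher with PK9328 (adjusted p = 3.499e-13). Of 8 tested genes of the metal list, 5 were higher with MS172 and 2 with PK9328, SLC39A10 and the factor MTF1 itself (log2 -0.20), the latter named after its value was seen. The list's median log2 fold change was 1.43, while genes of the same level had a median of 0.108 and all genes -0.026. Higher with MS172 were 62.5% of its members, against 45.2% of genes of the same level, and with PK9328 25%, against 18.6%. The fifth metallothionein gene, MT1A, did not pass the test (log2 1.42 ± 0.572, SE, adjusted p = 0.0875). Metallothionein copies are similar in sequence, so the split of reads among MT1X, MT1E and MT1M is uncertain.

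TXNIP, which restrains glucose uptake, and ARRDC3, another arrestin-domain gene, differed in opposite directions. TXNIP stood at 200, 202 and 201 CPM with MS172, 65.1, 62.4 and 65.4 CPM with PK9328 and 76.1 to 76.9 CPM with DMSO, and was 3.12-fold higher with MS172 (log2 1.64 ± 0.038, SE, adjusted p = 1.922e-24). ARRDC3 stood at 13.7, 14.4 and 13.1 CPM with MS172, 37, 38.7 and 32.7 CPM with PK9328 and 26.2 to 29.5 CPM with DMSO, and was 2.63-fold higher with PK9328 (adjusted p = 7.187e-16). Neither gene's libraries overlapped between the compounds. The Mondo factor MLXIP, which acts on TXNIP, was higher with MS172 by 0.26 in log2 (adjusted p = 3.313e-05), a call that ended with the fragment length covariate (log2 0.11, adjusted p = 0.446). MLX was higher with PK9328 (log2 -0.17, adjusted p = 0.0008694) and MLXIPL was not called (log2 -0.05), both named after their values were seen. Of 7 tested arrestin and Mondo genes, 2 were higher with MS172 and 3 with PK9328. These are 28.6% and 42.9%, against 32.4% and 24.1% of genes of the same level.

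Heat shock genes were higher with MS172. Of 23 tested members, 20 were higher with MS172 and 3 with PK9328, with a median log2 fold change of 0.309, against 0.172 for genes of the same level. The share higher with MS172 was 87%, against 53.7% of genes of the same level. The inducible HSP70 genes led. HSPA1A stood at 167, 166 and 173 CPM with MS172, 77.1, 75.4 and 76.7 CPM with PK9328 and 98.8 to 103 CPM with DMSO, and was 2.21-fold higher with MS172 (adjusted p = 1.685e-20). HSPA1B was 2.66-fold higher. For both genes DMSO lay between the compounds, and the split of reads between these near-identical copies is uncertain. The constitutive HSP70 gene HSPA8 stood at 1665, 1766 and 1704 CPM against 1066, 1076 and 1093 CPM (1.59-fold), and its cochaperone DNAJA1 was 1.45-fold higher. All 8 tested HSP40 and cochaperone genes, both HSP90 genes and all 4 small heat shock and chaperonin genes were higher with MS172. Of genes of the same levels, 52.8%, 68.4% and 68.4% were, in the same order. The 3 members higher with PK9328 were HSPA6, HSPA4L and HSF2, named after their values were seen; HSPA6 reached 1.615 CPM at most.

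NRF2 targets leaned the same way, with 21 of 28 higher with MS172, 2 higher with PK9328 and a median of 0.213 (same level, 0.108). Their share higher with MS172 was 75%, against 48.1% of genes of the same level. HMOX1, which degrades heme, stood at 57.1, 55.7 and 53.4 CPM with MS172, 27, 26.5 and 29 CPM with PK9328 and 23.4 to 25.1 CPM with DMSO (2.02-fold, adjusted p = 2.183e-15). TXNRD1, the cytosolic thioredoxin reductase, stood at 299, 297 and 300 CPM against 188, 193 and 187 CPM, and at 141 to 156 CPM with DMSO (1.58-fold). The autophagy receptor SQSTM1 was 1.56-fold and the peroxidase PRDX1 1.47-fold higher with MS172. All 6 tested heme, quinone and iron genes were higher with MS172, as were 56% of genes of the same level. The 2 members higher with PK9328 were NFE2L2, which encodes NRF2 and was named after its value was seen, and SLC7A11, the cystine carrier that ATF4 also acts on. SLC7A11 stood at 9.63, 8.26 and 8.76 CPM with MS172, 17 to 19.1 CPM with PK9328 and 8.53 to 11.7 CPM with DMSO (2.03-fold toward PK9328, adjusted p = 1.467e-09).

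Cholesterol genes were mostly higher with MS172. Of 20 tested enzymes of synthesis, 14 were higher with MS172 and 1 with PK9328, and of 3 efflux genes 0 were higher with MS172 and 2 with PK9328. Higher with MS172 were 70% of the enzymes, against 41.8% of genes of the same level. Higher with PK9328 were 66.7% of the efflux genes, against 37.5%. Over the 28 tested members the counts were 18 and 3, with a median of 0.200 (same level, 0.051). Higher with MS172 were 64.3% of them, against 39.7% of genes of the same level. INSIG1, the sterol-responsive anchor of the SREBP complex, stood at 190, 177 and 186 CPM with MS172, 93, 96.4 and 94.1 CPM with PK9328 and 50.8 to 55.3 CPM with DMSO. Both compounds' libraries lay above those of DMSO, and MS172 was 1.95-fold above PK9328 (log2 0.96 ± 0.040, SE, adjusted p = 4.401e-18). The synthesis enzyme genes DHCR7 and HMGCS1 were 1.46-fold and 1.41-fold higher with MS172, with DHCR7 at 236, 243 and 238 CPM against 156, 166 and 169 CPM. The fatty acid synthase FASN stood at 840, 837 and 896 CPM with MS172, 585, 578 and 577 CPM with PK9328 and 526 to 556 CPM with DMSO (1.48-fold). Of 11 fatty acid genes, 8 were higher with MS172 and 1, the phosphatase and coactivator LPIN1, with PK9328. Their median of 0.154 lay near the 0.172 of genes of the same level. Higher with MS172 were 72.7% of them, against 56.8% of genes of the same level.

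Chemokine genes led the NF-kB list. CXCL8, which attracts neutrophils, stood at 301, 291 and 286 CPM with MS172, 93.5, 106 and 94.4 CPM with PK9328 and 72.8 to 75.4 CPM with DMSO, and was 2.98-fold higher with MS172 (log2 1.58 ± 0.042, SE, adjusted p = 6.655e-23). CXCL5 was 2.40-fold higher (99.4, 93.1 and 90.5 against 40.3, 40.5 and 37.3 CPM). The feedback inhibitor NFKBIA stood at 55, 56.5 and 55.4 CPM against 33.6, 33.5 and 33.4 CPM, and at 31.7 to 32.5 CPM with DMSO (1.66-fold). Over the whole list, 10 of 24 members were higher with MS172 and 7 with PK9328, with a median of 0.092 (same level, -0.013). Higher with MS172 were 41.7%, against 27.5% of genes of the same level, and with PK9328 29.2%, near the 26.3% of such genes. Among 7 chemokine and cytokine genes, 4 were higher with MS172 and 3 with PK9328. These are 57.1% and 42.9%, against 30.7% and 24.9% of genes of the same level.

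Growth-related early genes were split as well. Of 7 tested AP-1 genes, 4 were higher with MS172 and 1 with PK9328, with a median of 0.445 (same level, 0.172). That is 57.1% higher with MS172, against 48.6% of genes of the same level. Of 9 genes of the EGR, KLF and NR4A families 1 was higher with MS172 and 4 with PK9328, with a median of -0.195 (same level, -0.088). Higher with PK9328 were 44.4% of them, against 23.7% of genes of the same level, and with MS172 11.1%, against 25.1%. FOSL1 stood at 191, 193 and 195 CPM with MS172 and 116, 120 and 112 CPM with PK9328 (1.67-fold). EGR1 stood at 274, 282 and 293 CPM with MS172, 385, 392.1 and 382 CPM with PK9328 and 332 to 346 CPM with DMSO, and was 1.36-fold higher with PK9328 (adjusted p = 1.715e-11). CCN1, a matricellular protein gene downstream of YAP, was 2.86-fold higher with MS172 (86.4, 89.2 and 86.4 against 32.5, 31.1 and 28.1 CPM), with DMSO between at 43.4 to 45.1 CPM. Other YAP targets did not follow it: AJUBA (log2 -0.48) and LATS2 (-0.13), named after their values were seen, were higher with PK9328. Of 15 YAP and TGF-beta targets, 3 were higher with MS172 and 7 with PK9328, with a median of -0.180 (same level, -0.013). Higher with PK9328 were 46.7% of them, against 20.2% of genes of the same level, and with MS172 20%, against 30.7%. Among the 7 higher with PK9328 were the ID genes ID1, ID2 and ID3, which encode inhibitors of basic helix-loop-helix factors and are targets of BMP signals. ID3 stood at 181, 183 and 175 CPM with MS172, 316, 336 and 349 CPM with PK9328 and 345 to 355 CPM with DMSO (1.85-fold toward PK9328, adjusted p = 6.672e-18), and ID1 was 1.61-fold higher with PK9328.

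Cell cycle genes were higher with MS172 by small amounts. Of 32 tested genes of G2/M and mitosis, 22 were higher with MS172 and 0 with PK9328, and of 34 genes of G1/S and replication, 23 and 3. Their medians were 0.195 and 0.186, with 0.051 and -0.013 for genes of the same levels. The shares higher with MS172 were 68.8% and 67.6%, against 40% and 32.4% of genes of the same levels. The kinase subunit CKS2 stood out, at 245, 243 and 228 CPM with MS172, 124, 126 and 131 CPM with PK9328 and 100 to 112 CPM with DMSO (1.88-fold, adjusted p = 3.986e-17). PCNA, the sliding clamp of replication, stood at 116, 118 and 113 CPM against 85.1, 82.9 and 83.2 CPM (1.38-fold). MKI67, the proliferation marker, was higher with MS172 by 0.18 in log2 (adjusted p = 0.0276) with overlapping libraries. Its call ended in 8 of 19 alternative fits: with the fragment length covariate (log2 0.26, adjusted p = 0.22), in the fit of the 6 compound libraries (0.0764), and without replicates 1 or 3 of MS172 (0.0991 and 0.103), 1 or 2 of DMSO (0.0563 and 0.0692), or 2 or 3 of PK9328 (0.104 and 0.093).

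Other coding genes with the largest differences toward MS172 belong to no single list. WNT6, a secreted ligand, stood at 2.73, 2.97 and 2.38 CPM against 0.330, 0.479 and 0.819 CPM, 4.95-fold higher with an SE of 0.31 in log2. With the fragment length covariate its log2 value was 2.97. WIPF3, a regulator of actin assembly, stood at 10.1, 10.5 and 10.5 CPM against 2.20, 2.67 and 2.90 CPM (log2 2.00 ± 0.134, SE), with DMSO at 2.44 to 2.85 CPM. The pseudokinase gene TRIB1 was 2.62-fold and the homeobox gene LHX1 2.60-fold higher. The membrane protein gene TM4SF1 was 1.98-fold higher at high expression, with 720, 683 and 645 CPM against 347, 342 and 344 CPM.

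**Figure D3:**
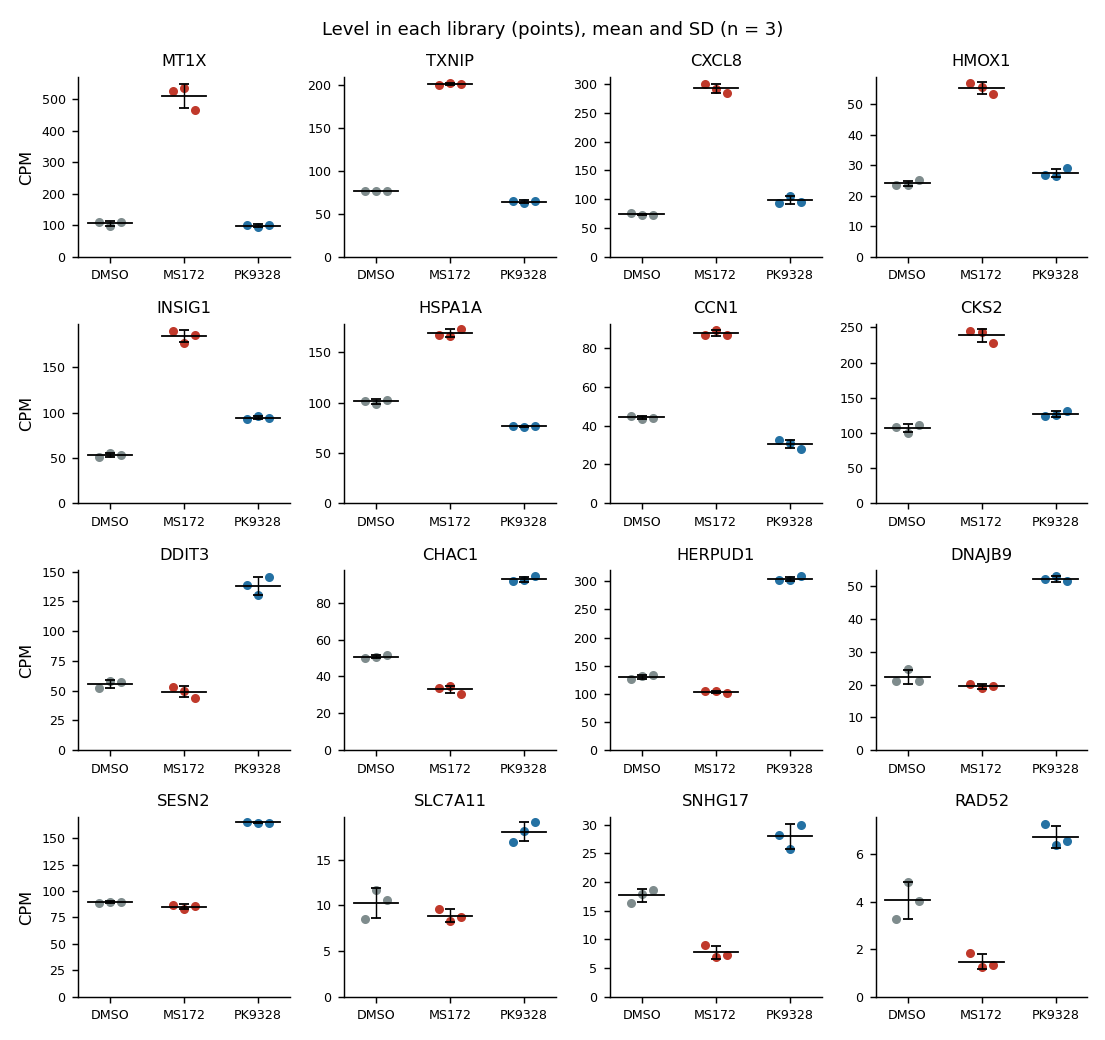
Level (CPM, linear axes from 0) of 16 genes in each library, with the mean as a horizontal bar and the SD as an error bar (n = 3). The 8 upper genes are higher in all MS172 libraries than in all PK9328 libraries, and the 8 lower genes are higher in all PK9328 libraries.

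Genes of the integrated stress response were higher with PK9328 than with MS172. Of 18 tested members, 14 were higher with PK9328, 1 (GDF15) was higher with MS172, and 3 were not called. The median log2 fold change was -0.838, where genes of the same level had 0.108. Higher with PK9328 were 77.8% of members, against 18.8% of genes of the same level. DDIT3, which encodes CHOP, stood at 139, 130 and 145 CPM with PK9328, 53.2, 49.7 and 44 CPM with MS172 and 51.8 to 58 CPM with DMSO. It was 2.82-fold higher with PK9328 (log2 -1.50 ± 0.063, SE, adjusted p = 4.841e-12), and the MS172 and DMSO libraries overlapped. CHAC1, which degrades glutathione, was 2.82-fold higher, and PPP1R15A (GADD34), which restores translation, 2.48-fold. In both, MS172 lay under DMSO and PK9328 above it: PPP1R15A stood at 66.3, 64.2 and 60.8 CPM with MS172, 95.2 to 100 CPM with DMSO and 159, 154 and 161 CPM with PK9328. SESN2, an inhibitor of mTORC1, was 1.93-fold and the factor ATF3 1.98-fold higher with PK9328. FGF21, a secreted hormone, was 3.38-fold higher, but at 1.71 to 1.87 CPM with PK9328 and 0.292 to 0.755 CPM with MS172.

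ATF4, the factor at the head of that response, and some of its targets differed by small amounts. ATF4 mRNA stood at 383, 366 and 363 CPM with MS172, 427, 433 and 449 CPM with PK9328 and 308 to 328 CPM with DMSO, 1.18-fold higher with PK9328 (adjusted p = 4.433e-06). TRIB3 was 1.18-fold higher with PK9328 (adjusted p = 3.493e-06), with both compounds above DMSO. With the fragment length covariate, the calls of ATF4 and TRIB3 ended (log2 -0.10 and -0.16, adjusted p = 0.36 and 0.152). ASNS, an ATF4 target of amino acid synthesis, did not pass the test (log2 -0.03, 95% interval -0.107 to 0.040). Of 15 amino acid synthesis genes, 3 were higher with MS172 and 6 with PK9328, with a median of -0.033 (same level, 0.172). Of 11 amino acid transporter genes, 2 were higher with MS172 and 6 with PK9328, with a median of -0.170 (same level, 0.108). The shares of these lists higher with PK9328 were 40% and 54.5%, against 13.7% and 21.1% of genes of the same levels. Those higher with MS172 were 20% and 18.2%, against 53.8% and 40.5%. SLC3A2, the shared heavy chain of several carriers, stood at 329, 331 and 322 CPM against 511, 510 and 520 CPM, with DMSO at 340 to 355 CPM (1.57-fold toward PK9328).

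Endoplasmic reticulum stress genes did not move as a block. Of 26 tested members, 10 were higher with each compound, and the median was -0.001 (same level, 0.051). That is 38.5% each way. Of genes of the same level, 43.2% were higher with MS172 and 18.3% with PK9328, so the share toward PK9328 exceeded its reference. HERPUD1, a component of endoplasmic reticulum degradation, stood at 302, 303 and 309 CPM with PK9328, 105, 105 and 101 CPM with MS172 and 126 to 133 CPM with DMSO, and was 2.94-fold higher with PK9328 (log2 -1.56 ± 0.037, SE, adjusted p = 1.922e-24). DNAJB9, a BiP cochaperone, was 2.67-fold higher (52.1, 53.1 and 51.5 against 20.3, 18.9 and 19.4 CPM), and SDF2L1 1.58-fold. HSPA5, which encodes BiP, stood at 2405, 2350 and 2346 CPM with PK9328, 1821, 1807 and 1745 CPM with MS172 and 1635 to 1686 CPM with DMSO (1.32-fold toward PK9328). Among the 14 chaperone genes, 4 were higher with PK9328 and 7 with MS172. The latter are 50%, near the 51.3% of genes of the same level, and the former 28.6%, against 13.5%.

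The p53 targets were read as 2 lists, by whether ATF4 or CHOP also acts on them, and the difference between the lists was not tested. Of 7 targets shared with those factors, 5 were higher with PK9328 and 1 with MS172, with a median of -0.307 (same level, 0.108). Of 36 other p53 targets, 14 were higher with PK9328, 5 with MS172 and 17 were not called, with a median of -0.134 (same level, -0.048). The shares of the 2 lists higher with PK9328 were 71.4% and 38.9%, against 21.4% and 29.7% of genes of the same levels. Both lists were drawn up with results of these data known. CDKN1A, the inhibitor of cyclin-dependent kinases, stood at 19.1, 21.8 and 20.1 CPM with MS172, 21.5, 24.6 and 24.6 CPM with PK9328 and 12.8 to 15.9 CPM with DMSO. Its libraries overlapped between the compounds, and its difference (log2 -0.22, adjusted p = 0.0259) was no longer called in 7 of 19 alternative fits, among them those without replicates 1 or 3 of MS172 (adjusted p = 0.129 and 0.0682) or 2 or 3 of PK9328 (0.105 and 0.0909). MDM2, the ubiquitin ligase of p53, lay between 3.08 and 4.92 CPM in all libraries, and its difference (log2 0.38 ± 0.161, SE, adjusted p = 0.0494) was no longer called in 14 of 19, with adjusted p up to 0.725. BBC3 (PUMA) was 1.24-fold higher with PK9328 (adjusted p = 1.077e-05, and 0.0577 with the fragment length covariate, at log2 -0.30 against -0.31 without it). GDF15 was higher with MS172, at 324, 336 and 320 CPM against 262, 270 and 270 CPM, with DMSO at 156 to 167 CPM (1.22-fold). GADD45A was 1.55-fold higher with PK9328, and so were the phosphatase gene PPM1D (1.61-fold) and the kinase gene PLK2 (1.30-fold).

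Of 10 members of the hypoxia list outside glycolysis, 6 were higher with PK9328 and 1 with MS172, with a median of -0.495 (same level, 0.019). Higher with PK9328 were 60% of these, against 21.6% of genes of the same level, and with MS172 10%, against 30.1%. Of 14 glycolysis genes 10 were higher with MS172 and 1 with PK9328, with a median of 0.149, near the 0.172 of genes of the same level. Their share higher with MS172 was 71.4%, against 54% of genes of the same level. VEGFA stood at 100.3, 100.4 and 100.2 CPM with PK9328, at 51.2, 53.3 and 54.1 CPM with MS172 and at 53.8 to 61.2 CPM with DMSO (1.90-fold toward PK9328). DDIT4, which inhibits mTORC1, stood at 1147, 1162 and 1210 CPM against 703, 708 and 679 CPM, with DMSO between at 855 to 904 CPM (1.68-fold). VEGFA and DDIT4 are also members of the stress response list above.

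The largest differences toward PK9328 lay among weakly expressed genes. RAD52, a mediator of homologous recombination, stood at 7.27, 6.39 and 6.55 CPM with PK9328, 3.29, 4.86 and 4.04 CPM with DMSO and 1.84, 1.24 and 1.34 CPM with MS172. The 3 groups did not overlap, and PK9328 was 4.55-fold above MS172 (log2 -2.19 ± 0.176, SE, adjusted p = 2.103e-11). XRCC2, another recombination gene, was 2.30-fold higher with PK9328 (10.8, 10.3 and 9.49 against 4.37, 3.91 and 5.00 CPM), with DMSO at 7.91 to 10.6 CPM. Of 25 recombination and Fanconi genes, 11 were higher with PK9328 and 2 with MS172, with a median of -0.142 (same level, -0.088). Higher with PK9328 were 44% of them, against 35.7% of genes of the same level. FAM13B was 3.23-fold higher with PK9328, and TSSK6, a kinase gene of the testis, 4.41-fold at no more than 2.31 CPM. ENSG00000144785 had the largest coding difference, 13.1-fold at 3.63 to 5.51 CPM with PK9328 and 0.245 to 0.444 CPM with MS172, and with counts scaled from TPM its log2 value moved from -3.71 to -4.39. It overlaps CNPY2 and CS on the same strand, as MIA-RAB4B overlaps MIA and RAB4B and FSBP overlaps RAD54B, so the split of their reads is uncertain. FSBP, at 1.43, 1.44 and 3.98 CPM with PK9328 against 0.326, 0.577 and 0.208 CPM, rested in part on its highest library, with log2 -2.62 over all and -1.95 without PK9328 replicate 3. With the fragment length covariate FSBP, MIA-RAB4B and FSD1L were no longer called, and their log2 values shrank to -1.20, -0.96 and -0.66, from -2.62, -1.963 and -1.70 (adjusted p = 0.394, 0.134 and 0.237). NBPF12, NBPF11 and the histone gene H4C14 have near-identical copies and are uncertain; H4C14 moved from -2.03 to -3.59 in log2 with that covariate. ZSCAN20, 3.32-fold higher with PK9328, moved from -1.73 to -2.32 with counts scaled from TPM.

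Zinc finger genes, most of which encode DNA-binding repressors with a KRAB domain, were mostly higher with PK9328. Of 199 tested ZNF genes on chromosome 19, 130 were higher with PK9328 and 5 with MS172, with a median of -0.529, where genes of the same level had -0.201. Of 221 ZNF genes on other chromosomes, 137 were higher with PK9328 and 9 with MS172, with a median of -0.355 (same level, -0.147). The shares of the 2 lists higher with PK9328 were 65.3% and 62%, against 31.6% and 32.1% of genes of the same levels. Over the fits tried, these medians stayed between -0.557 and -0.478 and between -0.391 and -0.339. ZNF621 stood at 23.6, 22.1 and 22.3 CPM with PK9328, 17.5 to 19.3 CPM with DMSO and 9.63, 10 and 9.88 CPM with MS172 (2.30-fold). ZNF391 was 3.21-fold and ZNF473 2.05-fold higher with PK9328, and in both DMSO lay between the compounds. Of 58 ZBTB, ZSCAN and ZKSCAN genes, 37 were higher with PK9328 and 4 with MS172, with a median of -0.381 (same level, -0.088). Their share higher with PK9328 was 63.8%, against 32.5% of genes of the same level. ZBTB7A, a repressor without a KRAB domain, was among the exceptions, at 121, 127 and 134 CPM with MS172 and 89.2 to 90.1 CPM with PK9328 (1.42-fold).

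Host genes of small nucleolar RNAs, whose spliced products are known substrates of nonsense-mediated decay, were also higher with PK9328. Of 24 tested, 16 were higher with PK9328 and 2 with MS172, with a median of -0.432 (same level, -0.088). That is 66.7% higher with PK9328, against 26.1% of genes of the same level. SNHG17 stood at 28.2, 25.7 and 30 CPM with PK9328, 16.4 to 18.7 CPM with DMSO and 9.06, 6.92 and 7.26 CPM with MS172 (3.60-fold, adjusted p = 8.208e-16). SNHG15 was 3.46-fold and SNHG1 2.51-fold higher with PK9328, again with DMSO between. With the fragment length covariate the list's median was -0.062, and 9 members were called higher with PK9328 and 1 with MS172. Of the 10 factors of nonsense-mediated decay, 7 were higher with PK9328 and 0 with MS172, with a median of -0.192 (same level, 0.019). The share higher with PK9328 was 70%, against 23.9% of genes of the same level. SMG9 stood at 37.6, 33.6 and 35.3 CPM against 18.9, 20.7 and 16.4 CPM (1.90-fold), and SMG1 was 1.64-fold higher.

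The share of reads on transcript classes was compared as well. Transcripts annotated as substrates of nonsense-mediated decay took 1.83, 1.78 and 1.73% of reads with MS172, 2.00, 2.00 and 2.07% with PK9328 and 1.79 to 1.87% with DMSO. Transcripts with a retained intron took 1.54, 1.52 and 1.49% with MS172 and 1.58, 1.58 and 1.68% with PK9328. Antisense transcripts took 0.206, 0.198 and 0.196% against 0.248, 0.246 and 0.247%. In each of these classes all PK9328 libraries lay above all MS172 libraries (exact permutation p = 0.1, the smallest possible, and 0.15 adjusted over 9 classes). Shares of short or overlapping transcripts depend on how reads were assigned to isoforms, and fragment length differed between the groups, whose part in this was not tested.

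**Figure D4:**
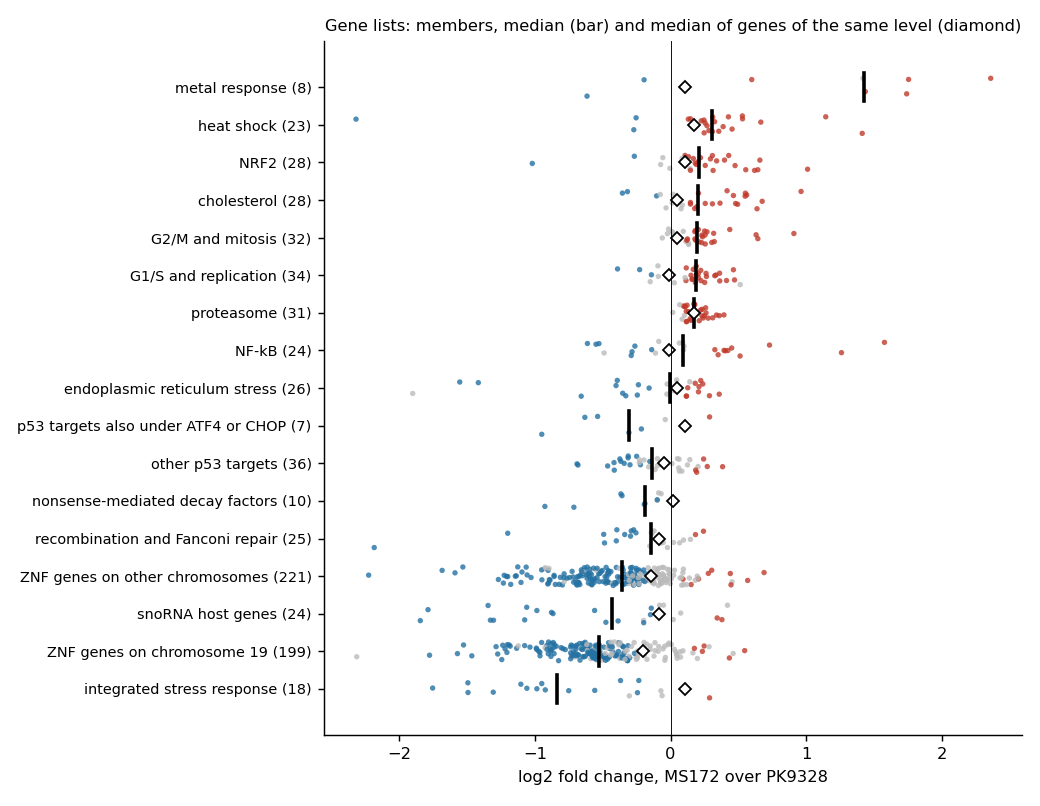
Log2 fold change of MS172 over PK9328 for each tested member of 17 lists (number of members in brackets), coloured by call (red higher with MS172, blue higher with PK9328, grey not called). Black bars are list medians and open diamonds are the medians of genes of the same expression level; the metal response list lies farthest to the right and the integrated stress response farthest to the left.

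The direction of the difference followed expression level across all genes. Genes were ordered by level and cut into 10 equal groups. The median log2 fold change was -0.204 in the lowest group and 0.172 in the highest. In the highest group, above 140 CPM, 68.4% of genes were higher with MS172 and 6.82% with PK9328, while between 6.66 and 12.8 CPM 9.34% and 39.2% were. Against DMSO, which both comparisons share, the medians ran from -0.187 to 0.115 for MS172 and from 0.015 to -0.063 for PK9328. Transcript length and GC content showed weaker trends, with medians from 0.055 for the shortest to -0.089 for the longest of 10 groups, and from -0.110 for the lowest to 0.112 for the highest by GC content. Lists of highly expressed genes have to be read against this trend. Of 31 proteasome genes, 27 were higher with MS172 and 0 with PK9328. That is 87.1% higher with MS172, against 61.9% of genes of the same level. The list's median of 0.175 hardly differed from the 0.172 of genes of the same level. Of 77 nuclear genes of the respiratory chain, 47 (61%) were higher with MS172, against 52.1% of genes of the same level, at a median of 0.171 (same level, 0.108). Of 83 ribosomal protein genes, 29 (34.9%) were, fewer than the 66.6% of genes of the same level, at a median of 0.080 (same level, 0.172). With an offset for GC content and length the ribosomal median was -0.006. Of the 13 mitochondrially encoded mRNAs, 8 (61.5%) were higher with MS172, no more than the 68.4% of genes of the same level. Their median was 0.559 (same level, 0.172). With the fragment length covariate 0 of them were called, at a median of 0.556; MT-ND3 was at log2 0.72 with it (adjusted p = 0.177) and 0.61 without. The reads of these mRNAs are part of the mitochondrial read share given above, so that share is not an independent observation. For the ribosomal and the mitochondrially encoded lists the reference by level is rough. The highest group of genes had a median level of 237 CPM, while the members of these lists had medians of 945 and 1670 CPM.

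**Figure D5:**
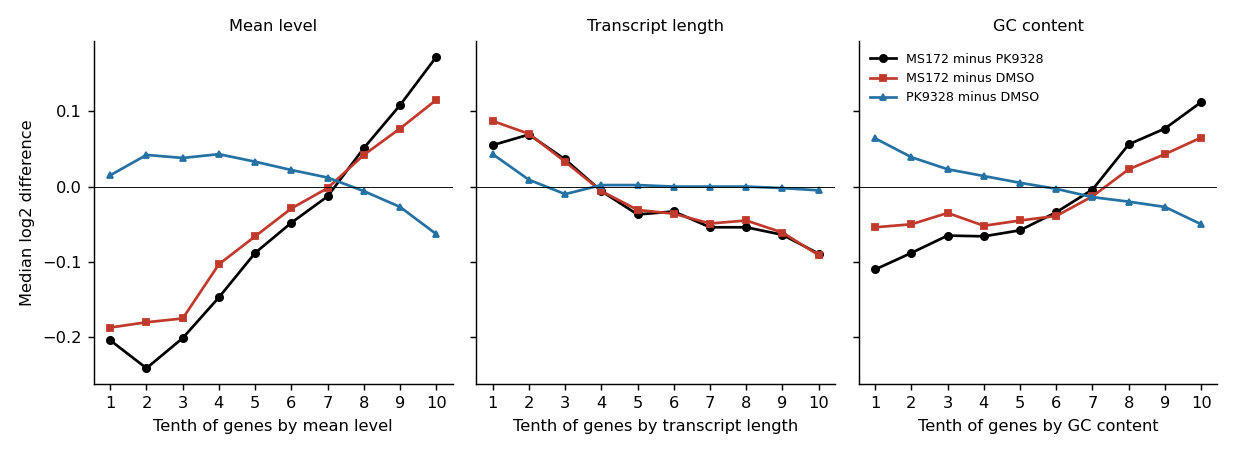
Median log2 difference in 10 equal groups of genes ordered by mean level, transcript length and GC content, for the direct comparison (black) and, beside it, each compound against the shared DMSO libraries (red and blue). By level the direct difference runs from -0.204 to 0.172.

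Many genes were shown to differ little. For 4157 genes (29.9%) the whole 95% interval of the fold change lay within 1.2-fold either way, and 1001 of these were nevertheless called. For 9447 genes it lay within 1.5-fold. MYC stood at 314, 309 and 321 CPM with MS172 and 315, 335 and 345 CPM with PK9328 (log2 -0.08, interval -0.154 to -0.002, adjusted p = 0.084), and passed the test with an offset for GC content and length and without PK9328 replicate 1. The acetyltransferase gene EP300 had an interval of -0.055 to 0.189 (adjusted p = 0.367), and its paralog CREBBP was 1.19-fold higher with PK9328 (adjusted p = 0.000375, and 0.0797 with the fragment length covariate, at log2 -0.29 against -0.25 without it). For CYP1A1, the classical target of the aryl hydrocarbon receptor, and for the early gene FOS the intervals were wide, -0.985 to 0.199 and -0.234 to 0.348, so the data do not show that the compounds act alike on them.

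The motifs were then counted in the promoters of list members called in the list's main direction, among the entries found by symbol. The window was the 250 bases before and 50 after the start, and 9821 promoters of tested coding genes served as the reference. The metal response motif was in 3 of 3 promoters (MT1X, MT2A and SLC30A1) and in 39.5% of all. The NF-kB motif was in 6 of 8 promoters of list members higher with MS172 and in 6.77% of all. The ATF4 composite motif was in 3 of 12 (ATF3, CHAC1 and FGF21) and in 1.64% of all, and the endoplasmic reticulum stress motif in 2 of 10 (HSPA5 and XBP1) and in 0.143%. The heat shock motif was in 3 of 18 (CHORDC1, DNAJA1 and HSPA8) and in 0.316%, the sterol motif TCACNCCAC in 1 of 12 and in 1.08%. The antioxidant motif TGACNNNGC was in 2 of 17 and in 15% of all, so its share in the NRF2 members was not above the reference. The lists hold genes known for these elements, and a match is a description of the sequence only.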

How the data were processed

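Poly(A)-selected RNA of 9 libraries (DMSO, MS172 and PK9328, 3 each) was analysed. The deposited tables give, per the file headers, estimated counts of reads and TPM for 197653 transcripts, with transcript and effective lengths in bases, 1 file per library. FastQC 0.11.8 and the build hg38 appear in the submitters' processing notes. Which program quantified the reads, and on which index, is not given in the sources used here. The members and lists were chosen with earlier results of these data known.

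Of the transcripts, 193348 matched GENCODE 29 without version; the rest held 0.356 to 0.382% of reads. Estimated counts were summed per gene (56865 genes) and rounded. Genes passing filterByExpr (13914) were tested with edgeR 4.0.16 in R 4.3.3 (TMM, glmQLFit robust, glmQLFTest, all 9 libraries, 6 residual degrees of freedom, Benjamini-Hochberg adjustment, threshold 0.05). CPM are TMM-scaled. The common biological coefficient of variation was 0.044. The fit was tested on simulated data. Fragment length was estimated on transcripts of 3000 bases or more, as the difference between a transcript's length and its effective length.

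The text names coding genes with an adjusted p under 0.05, a mean of at least 1 CPM and no overlap between the groups: the 12 largest toward each compound and the 6 smallest p not yet taken. It also names fixed genes, and up to 4 members per list by smallest p. Alternatives were RLE factors, DESeq2 1.42.0, limma-voom 3.58.1, no filter or a stricter filter (1 CPM in 3 libraries), a replicate block, counts scaled from TPM, the 6 compound libraries alone, a fragment length covariate, an offset for GC content and length, and leaving out each library. Some named genes are not reported here.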

Additional observations from a re-analysis of the deposited data

How the results depend on the processing

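Against 6641 genes called, the alternatives other than the fragment length covariate gave 5513 (counts scaled from TPM) to 6757 (the 6 compound libraries alone), and leaving out 1 library in turn gave 5651 to 6770, with 2768 to 3311 higher with MS172 and 2883 to 3459 higher with PK9328. RLE factors, which moved the median of all genes from -0.026 to -0.010, gave 3502 and 3177, and DESeq2 3236 and 2778. With counts scaled from TPM, 4896 genes were shared with the 6641, 25 of them with the opposite sign. The covariate gave 2474 genes, 1368 higher with MS172 and 1106 with PK9328, and 222 over 2-fold toward PK9328; the cause was not tested. Over 2-fold toward MS172, 63 genes became 107 with no filter and 41 with the stricter one, because low genes enter or leave; leaving out 1 library gave 61 to 78, and 349 to 385 toward PK9328. Replicate numbers do not pair the libraries (correlation of deviations -0.0569 to 0.0174 for the same number, -0.0491 to 0.0564 for different ones), and the replicate block gave 6405 genes; of 188 named genes, MDM2 (adjusted p = 0.057) and EGFR changed call.

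Genes with an interval within 1.2-fold numbered 2547 with counts scaled from TPM, 1088 with the covariate and 3599 to 4247 without 1 library, and 736 and 9447 for bands of 1.1-fold and 1.5-fold. Of 10 equal groups of genes by level, the median of the lowest (-0.204) was -0.672 with the stricter filter, which leaves few of its genes, -0.162 with counts scaled from TPM, -0.281 with the covariate, -0.234 with the GC and length offset and -0.246 to -0.203 without 1 library. That of the highest (0.172) was 0.188 with RLE and DESeq2, 0.157 with the offset and 0.165 to 0.183 without 1 library. As shares of TPM, the difference MS172 minus PK9328 in percentage points was -0.084 for antisense, 2.00 for mitochondrial, -0.324 for nonsense-mediated decay, -0.0458 for other, -0.454 for processed, -0.0906 for pseudogene and -0.467 for retained intron transcripts.

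Of 3572 values of single genes over 19 fits, 3482 kept direction and call, 75 lost and 9 gained the call, and 6 changed sign, none of them called under the changed sign: with counts scaled from TPM HDAC1 (log2 -0.047) and PALB2 (0.157), both called on estimated reads, with the covariate FOS (-0.232) and EP300 (-0.087), with the offset ASNS (0.013), and without MS172 replicate 3 FOS (-0.021; its values without 1 library ran from -0.021 to 0.104). The covariate ended 36 calls. Of 779 list medians, 93 moved. Of genes under 0.819 CPM, 1.94% were called higher with MS172 and 11.1% with PK9328; which differences could be detected at that level was not tested.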

Other observations

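A pair of genes outside the rule for named genes, singled out after their values were seen, were nearly or wholly without reads with 1 compound. ENTREP1 (chr9:69324567-69392558, plus strand) had 37, 33 and 36 estimated reads with MS172, 1, 2 and 3 with DMSO and 0 in each PK9328 library. Against a floor of 3 reads per PK9328 library it was at least 12.5-fold higher with MS172, and it was called by edgeR (adjusted p = 1.26e-09). PHLDA1-AS1, an antisense RNA, stood at 0, 0.222 and 0.501 CPM with MS172, 2.25, 0.833 and 2.69 CPM with DMSO and 9.25, 15.8 and 23.6 CPM with PK9328 (log2 -6.05, adjusted p = 0.000952 by edgeR). With the fragment length covariate its log2 value was -4.77 (adjusted p = 0.0975). It overlaps PHLDA1 on the opposite strand, and the use of strand in the quantification is not given in the sources used here, so reads of the 2 genes cannot be told apart.

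By annotated type, the 578 tested antisense genes had 23 members higher with MS172 and 121 with PK9328 (median log2 -0.216) and the 454 long intergenic RNA genes 33 and 103 (-0.207). These medians lay near the -0.204 of genes of the same level, and the shares higher with PK9328, 20.9% and 22.7%, near the 20.4% and 20.6% of such genes. The 176 transcribed unprocessed pseudogenes had 4 and 74, with a median of -0.484 (same level, -0.204) and 42% higher with PK9328 (same level, 24.1%). Coding genes had 3134 and 2981 (-0.010).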
